A study of Mus musculus with 6 samples.

Results

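The translation initiation factor genes of mouse midbrain dopaminergic neurons were compared between neurons with a knockdown of Satb1, which encodes a chromatin organiser, and control neurons. They were taken as the rows of the deposited count table whose gene name starts with Eif1 to Eif6, apart from the 4 kinase genes named Eif2ak. This gave 53 of the 23079 rows, grouped by the complex that the name gives. The first group was 3 Satb1 knockdown libraries, from neurons given serotype 1 adeno-associated virus (AAV1) with a Satb1 shRNA and EGFP. The second was 3 control libraries, from neurons given the same kind of virus with a scrambled shRNA and EGFP. The sample titles call both agents siRNA. All groups came from C57BL/6 mice aged 4 months that carry the Dat bacTRAP transgene, a tagged ribosomal protein driven by regulatory sequence of the dopamine transporter gene. The tissue was the dissected substantia nigra pars compacta and ventral tegmental area. Total RNA is the labelled molecule, a capture of tagged ribosomes is not stated, and 3 mice are given for the 6 libraries without saying which mouse gave which library. The p-values below therefore measure only the spread between these libraries, which may be technical.

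Initiation brings a ribosome to the start codon of an mRNA. The complex eIF2, bound to GTP and the initiator tRNA, joins the small ribosomal subunit with eIF1, eIF1A, eIF3 and eIF5, while eIF4F (the cap-binding eIF4E, the scaffold eIF4G and the helicase eIF4A) recruits the mRNA at its cap. After start codon recognition eIF5B joins the large subunit, and eIF2B reloads eIF2 with GTP, the step that phosphorylation of eIF2 blocks in the integrated stress response. In neurons these steps are a known control point for protein synthesis at synapses, and inherited defects of eIF2B cause a white matter disease.

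The libraries were deep, with summed gene counts of 147486754 to 164554674 in knockdown libraries and 160792736 to 170351145 in control libraries. Levels are given as CPM, the gene's share of a library's counts scaled to a common library size, with TMM factors (trimmed mean of M-values), where 1 count was worth 0.00557 to 0.00672 CPM. Satb1 itself had 82.9, 166 and 61.2 CPM in knockdown libraries 1 to 3, against 351, 349.6 and 319.8 CPM in control libraries 1 to 3, and its log2 fold change (log2 change, knockdown over control) was -1.72 ± 0.26 (SE; edgeR quasi-likelihood test, adjusted p = 0.00106). Markers of dopamine neurons were present in every library, but their summed level was 10671 to 13562 CPM in knockdown libraries, against 16979 to 19593 CPM in control libraries, and 6 of the 10 were called lower. Markers of oligodendrocytes summed to 653 to 738 CPM in knockdown libraries and 416 to 481 CPM in control libraries, with 10 of 12 called higher. Astrocyte markers summed to 492 to 609.7 CPM in knockdown libraries and 463 to 568 CPM in control libraries, with 2 of 10 called higher and 1 lower. The sums of microglial markers were 26.8 to 34.6 CPM in knockdown libraries and 26.2 to 27.6 CPM in control libraries (3 of 12 higher, 1 lower), and those of endothelial markers 4.20 to 5.79 CPM in knockdown libraries and 3.32 to 3.95 CPM in control libraries (1 of 7 higher). These sums follow the most abundant markers of each list. The median log2 fold change was 0.57 over the astrocyte markers, 1.09 over the microglial markers and 0.91 over the endothelial markers. The 1 microglial marker called lower was P2ry12, the most abundant of its list (means 13.8 CPM in the knockdown, 18.9 CPM in the control). The 1 astrocyte marker called lower was Slc1a2 (means 177 CPM in the knockdown, 245 CPM in the control). No marker of these 5 lists was at 0 in any library. These shifts ran alongside every result below, and their part in the results was not tested. In such bulk samples fewer cells of a type and less RNA per cell cannot be told apart.

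The 53 rows include 4 Argonaute genes (Eif2c1 to Eif2c4, described below) that are no initiation factors. Of the 53 rows, 52 passed the filter on low counts and were tested. The exception was Eif4e1b, an oocyte form of the cap-binding protein, with 8 counts in knockdown library 3 and 0 in the other libraries. Among the tested genes 2 were higher in the knockdown (Eif4e2 and Eif4ebp2), 13 were lower, and 37 did not pass the test at an adjusted p of 0.05, adjusted over all 16766 genes. This is 28.8% called, beside 21.1% of all genes tested, with 3.85% higher and 25% lower beside 8.48% and 12.6% of all genes. The counts of single complexes below stand against the same shares of all genes, and each rests on few genes. The groups did not overlap for 26 of the 52 genes, or 50% beside 38.7% of all genes. The knockdown libraries lay above the control libraries for 7 of them and below for 19, beside 17.9% and 20.8% of all genes. The median log2 fold change was -0.13, against 0.01 over all genes tested. Summed over all members, the level was 7514 to 7748 CPM in knockdown libraries and 8126 to 8341 CPM in control libraries.

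The split between higher and lower depended on the scaling. TMM factors were 1.04 to 1.09 in knockdown libraries and 0.925 to 0.955 in control libraries, so that scaling to total counts moved the median log2 fold change of all genes upward by 0.17, to 0.18. Under that scaling 6 members were higher and 8 lower, beside 16.5% and 5.8% of all genes, and the median of the members was 0.04. Of the 13 lower members, 8 stayed called, and the 5 that did not are named where they are described. The log2 fold changes of the 15 called members kept their sign under each of the 14 alternative analyses, and 7 of them stayed called in all 14: Eif1ax, Eif2b1, Eif2c1, Eif2c2, Eif3b, Eif3g and Eif5a2. Exons of 11 members (Eif1ad, Eif1b, Eif2a, Eif2b4, Eif2c2, Eif2d, Eif3d, Eif3m, Eif4a2, Eif5b and Eif6) overlap a gene on the other strand, and since strand use in the counting is not given, their values are uncertain. Exons of 8 members (Eif4a1, Eif4a2, Eif4e, Eif4e3, Eif4g1, Eif4g2, Eif4ebp3 and Eif5) overlap a gene on the same strand, by 1 base (Eif4g1) to 617 bases (Eif4a2). Their values are uncertain too, and of these Eif4g2, with 150 bases, was called.

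**Figure D1:**
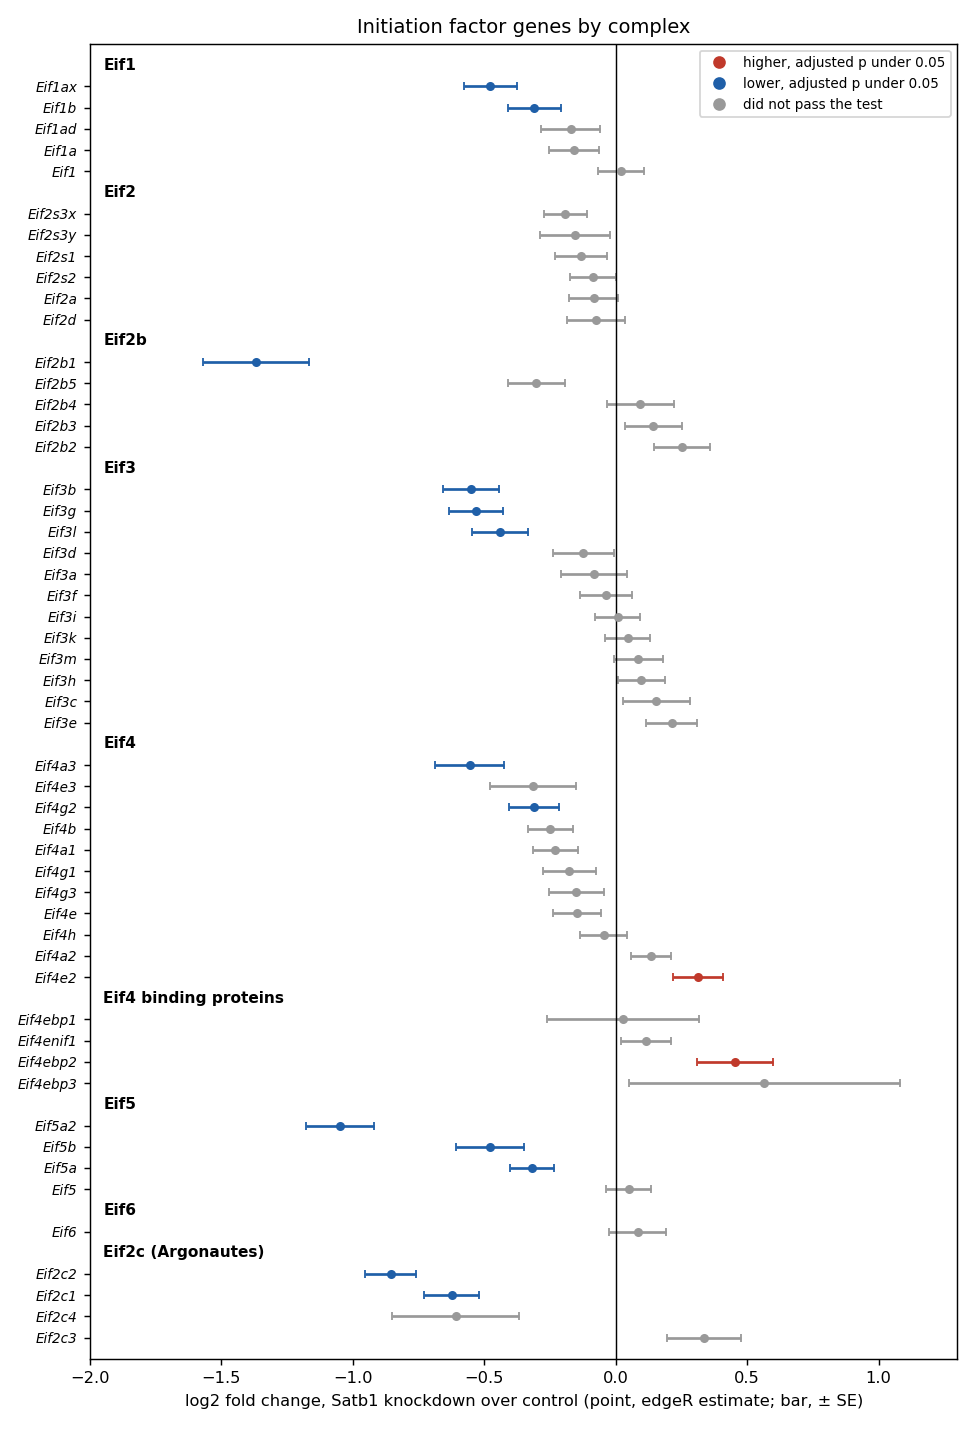
Log2 fold change of each tested member, the Argonaute rows included, Satb1 knockdown over control (x axis; point, edgeR estimate; bar, ± SE), grouped by complex down the page. The eIF2 genes lie close to 0, whereas Eif2b1 at -1.37 stands far below the other 4 subunits of its complex.

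In eIF2B 1 of 5 genes was lower, and it had the lowest log2 fold change of the 52 tested members. Eif2b1 encodes the alpha subunit, a regulatory subunit that holds the complex together and takes part in its sensing of phosphorylated eIF2. The gene, which like all others carries the symbol of the count table, spans bases 124570213 to 124579131 of chromosome 5 (minus strand; all coordinates are of GRCm38, also known as mm10). Its level was 16.7, 23.4 and 11.1 CPM in knockdown libraries 1 to 3, against 45.7, 42.6 and 43.8 CPM in control libraries 1 to 3. Every knockdown library was far below every control library, and the knockdown libraries were spread more widely. Library 2 was highest and library 3 lowest, as for Satb1. The dopamine neuron marker Slc6a3 had this order too (2424, 3406 and 2363 CPM in knockdown libraries 1 to 3), so it is not particular to Eif2b1. A relation to the level of Satb1 was not tested. The mean was 17.1 ± 6.12 CPM in the knockdown and 44.1 ± 1.55 CPM in the control (SD, n = 3 each), a log2 change of -1.37 ± 0.20 (SE; edgeR adjusted p = 0.000846), or 2.58-fold lower. Across the 14 alternatives it stayed called, at -1.66 to -1.12.

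None of the other 4 subunits of eIF2B was called. Eif2b2, the beta subunit, had 66.0, 72.2 and 79.7 CPM in knockdown libraries 1 to 3, against 55.9, 62.1 and 65.1 CPM in control libraries 1 to 3, so that the knockdown libraries lay above the control libraries. Its log2 fold change of 0.25 ± 0.11 (SE) did not pass the test (adjusted p = 0.116), whereas with total-count scaling it was 0.42 (adjusted p = 0.0109). Eif2b3 (gamma) and Eif2b4 (delta) had log2 fold changes of 0.14 (adjusted p = 0.394) and 0.09 (adjusted p = 0.662), with overlapping groups. Eif2b5, the epsilon subunit that catalyses nucleotide exchange, had 36.2, 35.8 and 34.4 CPM in knockdown libraries and 42.7, 48.4 and 40.0 CPM in control libraries. Its groups did not overlap, and its log2 fold change of -0.30 ± 0.11 (SE) missed the threshold (adjusted p = 0.0663), while DESeq2 called it (adjusted p = 0.0479). Within each library, the log2 ratio of Eif2b1 to the mean of the other 4 subunits was -1.04, -0.60 and -1.76 in the knockdown, against 0.47, 0.29 and 0.28 in the control, a difference of -1.48 that does not depend on scaling between libraries. No test was made of this ratio, because the fall of Eif2b1 was already known. Per kilobase of exon, Eif2b1 ranked 43 of the 53 members in the knockdown, at 6.62 ± 2.37 CPM per kb, and 29 in the control, at 17.1 ± 0.599 CPM per kb.

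**Figure D2:**
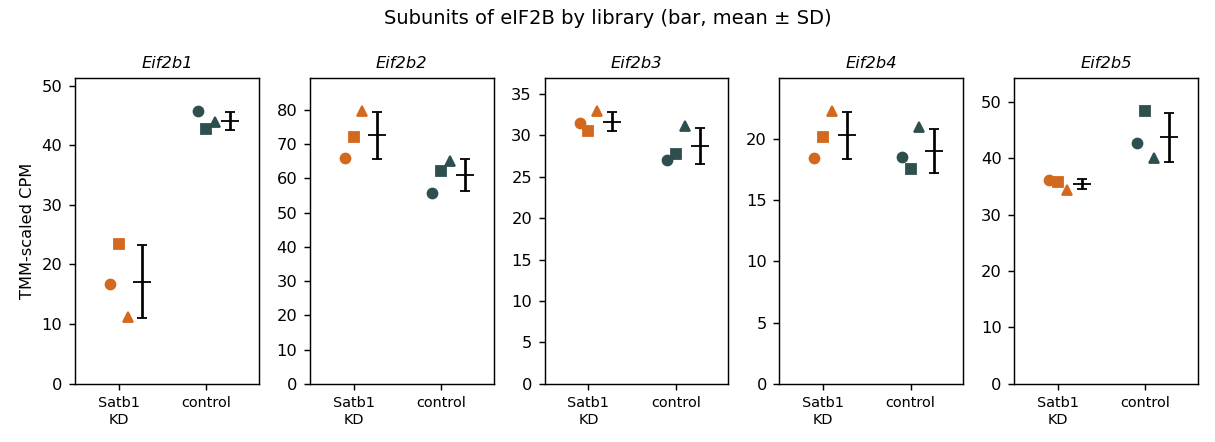
TMM-scaled CPM (y axis, from 0) of the 5 eIF2B subunit genes in the 3 Satb1 knockdown libraries (left of each panel) and the 3 control libraries (right); circles, squares and triangles mark libraries 1, 2 and 3, and bars give mean ± SD. Eif2b1, at a mean of 17.1 CPM in the knockdown against 44.1 CPM in the control, has the widest gap between the groups of the 5.

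Eif2b1 (gene identifier 209354) is transcribed away from Gtf2h3, which encodes a subunit of the general transcription factor TFIIH, and the annotated starts of the 2 genes lie 9 bases apart on opposite strands. Gtf2h3 had 9.68, 7.40 and 9.25 CPM in knockdown libraries 1 to 3, against 11.3, 11.6 and 7.84 CPM in control libraries 1 to 3. The groups overlapped, and its log2 fold change of -0.22 ± 0.19 (SE) was not called (adjusted p = 0.441). The stretch just before the Eif2b1 start, which reaches into the start of Gtf2h3, is given here 5′ to 3′ as 29 bases of the minus strand at chr5:124579132-124579160 (RefSeq, GRCm38.p6). It is all in lower case because these 29 bases hold no match to the 6 promoter motifs searched. The longer window before the Eif2b1 start, which is used for the motif counts below, does hold a GC box (GGGCGG on either strand). That window holds none of the other motifs.
Eif2b1: cccacgggccaaggcgcactcgatttccg
Another 5 members have a protein-coding neighbour that starts within 1000 bases on the other strand. None of the 5 such neighbours that were tested, Gtf2h3 included, was called, beside 21.1% of all genes tested. With so few neighbours, nothing about neighbours as a set can be read from this count.

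None of the 6 genes grouped with eIF2 was called. The complex has an alpha subunit (Eif2s1) that is the target of the stress kinases, a beta subunit (Eif2s2) and a GTP-binding gamma subunit (Eif2s3x and its Y-linked relative Eif2s3y). Eif2s3x, the most abundant per kilobase of exon in this group, had 203, 206 and 211 CPM in knockdown libraries 1 to 3, against 237, 232 and 239.9 CPM in control libraries 1 to 3. The groups did not overlap, and the log2 fold change of -0.19 ± 0.08 (SE) did not pass the test (adjusted p = 0.121). Eif2s1 had 60.2, 58.2 and 62.8 CPM in the knockdown and 61.2, 67.1 and 70.3 CPM in the control, and its log2 fold change was -0.13 (adjusted p = 0.381), or 0.04 with total-count scaling. Log2 fold changes were -0.09 for Eif2s2, -0.15 for Eif2s3y, -0.08 for Eif2a and -0.08 for Eif2d, the last 2 encoding factors outside the trimer that can deliver initiator tRNA. Reads of Eif2s2 and Eif2s3x may be shared with copies at 97% identity or more over 39.0% and 37.0% of the transcript, so both are uncertain.

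Of the genes for eIF1 and eIF1A, the small factors that keep the scanning ribosome accurate, 2 of 5 were lower. Eif1ax encodes the X-linked form of eIF1A and had 89.5, 99.6 and 87.2 CPM in knockdown libraries 1 to 3, against 139.6, 129 and 117 CPM in control libraries 1 to 3. All knockdown libraries were below all control libraries, with means of 92.1 ± 6.57 CPM in the knockdown and 128 ± 11.5 CPM in the control (SD, n = 3 each) and a log2 change of -0.48 ± 0.10 (SE; edgeR adjusted p = 0.006). The autosomal Eif1a was also lower in each knockdown library, at 74.6 to 82.2 CPM against 82.4 to 90.1 CPM in the control, but its log2 fold change of -0.16 did not pass the test (adjusted p = 0.261).

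Eif1 and Eif1b encode near-identical proteins that monitor the start codon. Eif1b had 139, 142 and 127 CPM in knockdown libraries and 181, 176 and 148 CPM in control libraries, a log2 change of -0.31 ± 0.10 (SE; adjusted p = 0.0468). This call was at the edge of the threshold and was lost with total-count scaling, with relative log expression scaling, with a filter of at least 1 CPM and without any 1 of knockdown libraries 1, 2 or 3 or control libraries 1 or 2 (adjusted p = 0.0592 to 0.168 without a library). Eif1 had 453, 442 and 402 CPM in the knockdown and 456, 422 and 402 CPM in the control, a log2 fold change of 0.02 (adjusted p = 0.908). Within libraries, the log2 ratio of Eif1 to Eif1b was 1.67 ± 0.03 in the knockdown and 1.35 ± 0.09 in the control (SD, n = 3 each). The ranges did not overlap, and the exact 2-sided permutation test gave p = 0.1, the smallest that 3 against 3 libraries allow (0.175 after adjustment over 7 ratios). Copies at 97% identity or more cover 25.9% of the Eif1 transcript, so its value and this ratio are uncertain. Eif1ad, whose product resembles eIF1A, had a log2 fold change of -0.17 that was not called.

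The eIF3 complex is the largest initiation factor, a scaffold on the small subunit that binds most of the other factors. Of its 12 tested genes 3 were lower and none was higher. Eif3b and Eif3g encode subunits of one peripheral module that also holds Eif3i, which had a log2 fold change of 0.01 with overlapping groups (adjusted p = 0.969). Eif3b (chromosome 5, plus strand, 140419328 to 140443360) had 30.8, 33.9 and 30.2 CPM in knockdown libraries 1 to 3, against 44.6, 45.0 and 49.3 CPM in control libraries 1 to 3. The means were 31.6 ± 1.98 CPM in the knockdown and 46.3 ± 2.61 CPM in the control (SD, n = 3 each), without overlap, and the log2 fold change was -0.55 ± 0.11 (SE; edgeR adjusted p = 0.00344). Eif3g (chromosome 9, minus strand, 20894349 to 20898623) had 59.9, 74.0 and 65.4 CPM in the knockdown, against 95.9, 95.0 and 96.95 CPM in the control. Its control libraries differed little, at 95.9 ± 0.977 CPM, and all knockdown libraries, at 66.4 ± 7.15 CPM (SD, n = 3 each), lay well below them, with a log2 change of -0.53 ± 0.10 (SE; adjusted p = 0.00347).

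Eif3l, a subunit outside the conserved core that yeast lacks, had 59.0, 61.5 and 69.4 CPM in knockdown libraries, against 78.1, 85.7 and 93.5 CPM in control libraries. Its log2 fold change was -0.44 ± 0.11 (SE; adjusted p = 0.0119), and the call was lost with total-count scaling (adjusted p = 0.0731), without knockdown library 1 (-0.38, adjusted p = 0.0661) and without control library 3 (-0.37, adjusted p = 0.0523). The other 9 subunits had log2 fold changes of -0.12 (Eif3d) to 0.21 (Eif3e). Among these, Eif3e had 169, 144 and 164 CPM in the knockdown against 140, 131 and 141 CPM in the control, with every knockdown library above every control library (adjusted p = 0.138, or 0.0147 with total-count scaling). Eif3h, the eIF3 gene with the highest level per kilobase of exon, had 117 ± 7.44 CPM per kb in the knockdown and 109.8 ± 5.06 CPM per kb in the control, with overlapping groups. The median log2 fold change over the 12 genes was -0.01. Eif3m shares 87.7% of its transcript with a copy at 97% identity or more and is uncertain.

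Eif3b and Eif3g were both called lower under every alternative. The window of Eif3b, which is not shown, holds the searched motif TATAAA and none of the other motifs. The promoter of Eif3g is shown as an example. These are the 120 bases before its RefSeq start on the minus strand, chr9:20898591-20898710 (GRCm38.p6). The capitals mark the single match to a searched motif, the ETS core CCGGAA, 44 bases before that start. The RefSeq start lies inside the GENCODE gene span given above, so the first part of that span is within the sequence shown.
Eif3g: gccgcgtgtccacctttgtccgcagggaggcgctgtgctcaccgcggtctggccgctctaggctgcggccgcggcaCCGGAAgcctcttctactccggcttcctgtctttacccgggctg

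The eIF4 group showed both directions. Of 11 tested genes 2 were lower and 1 was higher. Eif4a3, which encodes the helicase of the exon junction complex rather than a subunit of eIF4F, had 29.5, 36.4 and 37.8 CPM in knockdown libraries 1 to 3, against 43.6, 51.5 and 57.3 CPM in control libraries 1 to 3. The groups did not overlap and the log2 fold change was -0.56 ± 0.13 (SE; edgeR adjusted p = 0.0105), a call lost only without knockdown library 1 (-0.45, adjusted p = 0.0601). Eif4g2 encodes DAP5, a relative of eIF4G that lacks the site for eIF4E and serves cap-independent initiation. It had 754, 763 and 650.3 CPM in the knockdown, against 989.7, 871 and 828 CPM in the control, with a log2 change of -0.31 ± 0.10 (SE; adjusted p = 0.0357). The call for Eif4g2 was lost with total-count scaling (adjusted p = 0.326), with a filter of at least 1 CPM (adjusted p = 0.0552) and without knockdown library 1 or 3 or control library 1 or 2 (adjusted p = 0.0736 to 0.142).

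The canonical subunits of eIF4F were not called. The scaffold genes Eif4g1 and Eif4g3 had log2 fold changes of -0.18 (adjusted p = 0.245) and -0.15. The cap-binding Eif4e had 228, 228 and 236 CPM in knockdown libraries and 281, 243 and 243 CPM in control libraries, with a log2 fold change of -0.15 (adjusted p = 0.285), or 0.02 with total-count scaling. Eif4b and Eif4h encode cofactors of the helicase. Eif4b lay lower in each knockdown library, at 182 to 196 CPM against 219 to 236 CPM in the control, and missed the threshold (log2 fold change -0.25, adjusted p = 0.0566; 0.0382 with DESeq2), while Eif4h had a log2 fold change of -0.05. For Eif4e3, an atypical cap-binding relative, the log2 fold change was -0.32 with overlapping groups (adjusted p = 0.203).

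Eif4a1 and Eif4a2 encode paralogous helicases of eIF4F. Eif4a2, the form abundant in brain and the member with the highest level per kilobase of exon in both groups, had 1187, 1153 and 1248 CPM in knockdown libraries 1 to 3, against 1127, 1072 and 1070.4 CPM in control libraries 1 to 3. Eif4a1 had 242, 251 and 273.5 CPM in the knockdown, against 295.5, 296 and 308 CPM in the control. Neither passed the test (log2 fold changes 0.13 ± 0.08 and -0.23 ± 0.09 (SE), edgeR adjusted p = 0.241 and 0.0784), although the knockdown libraries lay above the control for Eif4a2 and below it for Eif4a1. Eif4a1 was called without knockdown library 3 (adjusted p = 0.0495) and with replicate number as a block (adjusted p = 0.0181). With total-count scaling Eif4a2 was called (0.30, adjusted p = 0.0136). The log2 ratio of Eif4a1 to Eif4a2 was -2.23 ± 0.06 in the knockdown and -1.86 ± 0.07 in the control (SD, n = 3 each), without overlap, and the exact permutation test gave its smallest possible p of 0.1 (0.175 adjusted). Copies at 97% identity or more cover 68.7% of the Eif4a1 transcript and 15.5% of that of Eif4a2, so reads may have been lost from either or shared.

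Eif4e2 and Eif4ebp2 were the 2 members that rose. Eif4e2 encodes 4EHP, which binds the cap without recruiting eIF4G, and Eif4ebp2 encodes the 4E-BP form that is prominent in brain, which holds eIF4E back until mTOR phosphorylates it. Eif4e2 had 72.1, 78.0 and 80.6 CPM in knockdown libraries 1 to 3, against 60.2, 63.2 and 62.2 CPM in control libraries 1 to 3. Its means were 76.9 ± 4.35 CPM in the knockdown and 61.8 ± 1.53 CPM in the control (SD, n = 3 each), and the log2 fold change was 0.31 ± 0.09 (SE; edgeR adjusted p = 0.0326). Eif4ebp2 had 49.3, 38.0 and 42.6 CPM in the knockdown, against 37.9, 30.8 and 26.2 CPM in the control. Its groups were barely apart, with means of 43.3 ± 5.67 CPM in the knockdown and 31.6 ± 5.88 CPM in the control (SD, n = 3 each) and a log2 change of 0.45 ± 0.14 (SE; adjusted p = 0.0422).

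Neither call held when libraries were left out. Eif4e2 was lost when any 1 of the 6 libraries was left out (adjusted p = 0.0537 to 0.0997), and Eif4ebp2 was lost without knockdown library 1 (adjusted p = 0.164) or 3 (0.0602) and without control library 2 (0.126) or 3 (0.152). Within libraries the log2 ratio of Eif4e to Eif4e2 was 1.59 ± 0.07 in the knockdown and 2.04 ± 0.16 in the control (SD, n = 3 each), without overlap (exact permutation p = 0.1, the smallest possible; 0.175 adjusted). Eif4ebp1 (2.81, 2.32 and 2.81 CPM in the knockdown, 3.19, 1.79 and 2.82 CPM in the control) and Eif4ebp3 (1.59, 0.54 and 2.85 CPM in the knockdown, 0.929, 1.19 and 1.25 CPM in the control) were near the bottom of the members in level per kilobase of exon, and neither was called. Eif4ebp3 shares 67.7% of its transcript with an overlapping gene model and is uncertain. Eif4enif1, the transporter that takes eIF4E into the nucleus, had a log2 fold change of 0.12 (adjusted p = 0.435). The ratios of Eif4g1 to Eif4g3, of Eif4ebp1 to Eif4ebp2 and of Eif2s3x to Eif2s1 overlapped between the groups, with exact permutation p of 0.7, 0.3 and 0.5.

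Both higher members had the core of the cyclic AMP response element (CRE), TGACGT or its reverse complement ACGTCA, in their promoters, which was seen after the motif search and is why both are shown. Capitals mark motif matches. The 120 bases before the Eif4e2 start lie on the plus strand at chr1:87213791-87213910, with a GC box 44 and a CRE core 25 bases before the start. The 250 bases before the Eif4ebp2 start lie on the minus strand at chr10:61452670-61452919, with GC boxes 215 and 46, a CRE core 186 and an ETS core 123 bases before the start (both RefSeq, GRCm38.p6).
Eif4e2: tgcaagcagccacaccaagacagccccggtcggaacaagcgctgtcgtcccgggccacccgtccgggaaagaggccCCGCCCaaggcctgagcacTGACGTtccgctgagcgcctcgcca
Eif4ebp2: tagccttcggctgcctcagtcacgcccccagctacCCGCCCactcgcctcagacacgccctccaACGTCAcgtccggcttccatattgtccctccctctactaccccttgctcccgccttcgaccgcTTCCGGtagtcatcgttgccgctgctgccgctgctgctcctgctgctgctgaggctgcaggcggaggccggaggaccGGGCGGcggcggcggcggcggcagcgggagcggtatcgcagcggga

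**Figure D3:**
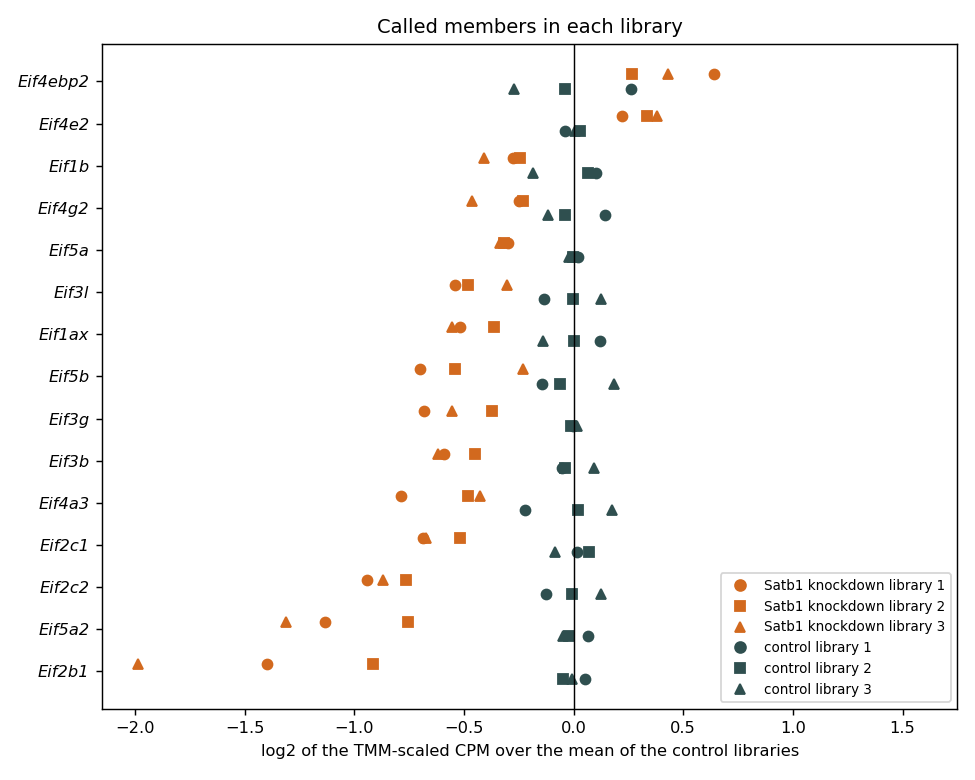
Log2 of the TMM-scaled CPM over the mean of the control libraries (x axis) for the 15 called members, with each of the 3 Satb1 knockdown libraries (orange) drawn above each of the 3 control libraries (dark). Eif2b1 sits lowest in every knockdown library, and the gap between the groups is narrowest for Eif1b and Eif4ebp2.

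In the eIF5 group 3 of 4 genes were lower, beside 12.6% of all genes. Of these 3 only Eif5a2 stayed called in all 14 alternatives, so the count is no firm result about the group. Eif5a2 encodes the second form of eIF5A, the factor that carries hypusine and helps ribosomes through difficult peptide bonds and at termination as well as early in translation. The gene (chromosome 3, plus strand, 28781276 to 28798846) had 81.4, 106 and 71.9 CPM in knockdown libraries 1 to 3, against 187, 176 and 173 CPM in control libraries 1 to 3. The order of the knockdown libraries was that of Satb1, of Eif2b1 and of the marker Slc6a3, and its meaning was not tested. The means were 86.4 ± 17.5 CPM in the knockdown and 179 ± 7.59 CPM in the control (SD, n = 3 each), a log2 change of -1.05 ± 0.13 (SE; edgeR adjusted p = 0.0004), or 2.07-fold lower. In level per kilobase of exon Eif5a2 ranked 27 in the knockdown and 19 in the control.

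Eif5a, the ubiquitous form (chromosome 11, minus strand, 69916714 to 69921958), had 193, 191 and 188 CPM in the knockdown, against 241, 238 and 235 CPM in the control. Replicates of this gene were close, at 191 ± 2.37 CPM in the knockdown and 238 ± 3.21 CPM in the control (SD, n = 3 each), and the log2 fold change was -0.32 ± 0.08 (SE; adjusted p = 0.0162). The call was lost with total-count scaling (-0.15, adjusted p = 0.222), without knockdown library 1 (0.0601) and without control library 1 (0.0519) or 2 (0.0696), and 32.2% of the transcript is shared with copies at 97% identity or more. The log2 ratio of Eif5a to Eif5a2 was 1.16 ± 0.28 in the knockdown and 0.41 ± 0.04 in the control (SD, n = 3 each), without overlap, with the ratio higher in every knockdown library (exact permutation p = 0.1, the smallest possible; 0.175 adjusted). Both enzymes that make hypusine on eIF5A were also lower. Dhps, deoxyhypusine synthase, had 35.9, 37.8 and 35.4 CPM in the knockdown, against 51.5, 54.7 and 47.0 CPM in the control, a log2 change of -0.49 ± 0.10 (SE; adjusted p = 0.00608). Dohh, the hydroxylase of the second step, had 29.8, 34.7 and 28.0 CPM in the knockdown, against 41.9, 45.9 and 43.0 CPM in the control, a log2 change of -0.50 ± 0.11 (SE; adjusted p = 0.00882, or 0.052 with total-count scaling). In all 4 genes every knockdown library was below every control library. Exons of Dhps overlap a gene on the other strand and those of Dohh a predicted gene on the same strand, so the 2 values are uncertain.

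**Figure D4:**
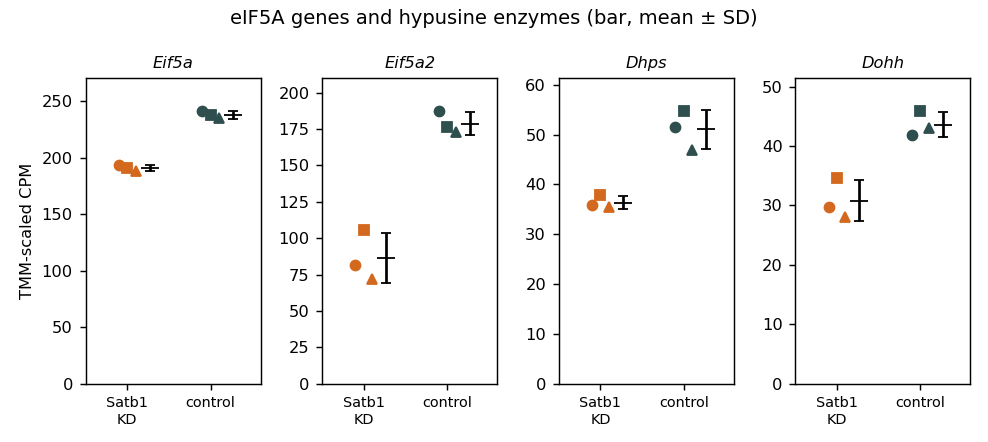
TMM-scaled CPM (y axis, from 0) of Eif5a, Eif5a2 and the hypusine enzyme genes Dhps and Dohh in the 3 Satb1 knockdown libraries (left of each panel) and the 3 control libraries (right); circles, squares and triangles mark libraries 1, 2 and 3, and bars give mean ± SD. The groups do not overlap in any panel, and the gap is widest for Eif5a2, at a mean of 86.4 CPM in the knockdown against 179 CPM in the control.

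The promoter of Eif5a2 held matches to 4 of the 6 motifs. Shown are the 120 bases before its start on the plus strand, chr3:28781157-28781276 (RefSeq, GRCm38.p6). In capitals are an E box 117, GC boxes 108 and 16, a CCAAT box 83 and an ETS core 36 bases before the start.
Eif5a2: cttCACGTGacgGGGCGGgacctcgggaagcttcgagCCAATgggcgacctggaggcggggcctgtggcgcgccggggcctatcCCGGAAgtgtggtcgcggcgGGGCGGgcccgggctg

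Eif5b, the GTPase that joins the subunits, had 80.3, 89.4 and 111 CPM in knockdown libraries, against 118, 125 and 148 CPM in control libraries. Its log2 fold change was -0.48 ± 0.13 (SE; adjusted p = 0.0196), lost with total-count scaling (adjusted p = 0.0799), without knockdown library 1 (0.0963) or 2 (0.0549) and without control library 2 (0.0504) or 3 (0.0843). Its exons overlap 1643 bases of Rev1 on the other strand. Eif5, the GTPase activator for eIF2, had 523, 487 and 571 CPM in the knockdown and 511, 521 and 495 CPM in the control, with a log2 fold change of 0.05 and overlapping groups. Eif6, which keeps the large subunit from joining early, had a log2 fold change of 0.08 (adjusted p = 0.644).

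The name rule also took in 4 rows that are no initiation factors. Eif2c1 to Eif2c4 are old symbols of Ago1 to Ago4, the Argonaute proteins that carry miRNAs. Eif2c2 had 107, 121 and 112 CPM in knockdown libraries 1 to 3, against 188, 204 and 224 CPM in control libraries 1 to 3, a log2 change of -0.86 ± 0.10 (SE; edgeR adjusted p = 0.000327). Eif2c1 had 30.0, 33.7 and 30.3 CPM in the knockdown, against 48.8, 50.7 and 45.5 CPM in the control, a log2 change of -0.62 ± 0.11 (SE; adjusted p = 0.00179). Neither gene's groups overlapped, and Eif2c2 shares 219 exon bases with Chrac1 on the other strand. Eif2c3 was not called (0.34, adjusted p = 0.11, or 0.51 and 0.0184 with total-count scaling), nor was Eif2c4 (-0.61, adjusted p = 0.0934), the least abundant of the 4 per kilobase of exon, except without knockdown library 2 (-0.85, adjusted p = 0.0357). Without these 4 rows, 2 of 48 tested genes were higher and 11 lower, or 27.1% called (4.17% higher and 22.9% lower). The median log2 fold change was then -0.10.

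Promoter windows of 250 bases before the start (RefSeq, GRCm38.p6) were at hand for 41 of the 53 members and were searched for 6 motifs on both strands. GGGCGG (GC box) was in 75.6% of the members, beside 33.0% of 27025 genes with a window, CCGGAA (ETS core) in 36.6% beside 12.25%, CACGTG (E box) in 17.1% beside 6.04%, and TGACGT (CRE core) in 17.1% beside 6.52%. CCAAT was in 26.8% of members beside 34.5%, and TATAAA in 9.76% beside 13.0%. Median GC content of the windows was 61.2% in members and 52% in all genes with a window. The 27025 genes include genes that were not tested here, and a comparison with tested genes alone was not made. The differences are therefore not shown to be a trait of initiation factor genes. By outcome, the CRE core was in 2 of the 2 higher members, 0 of the 11 lower members with a window and 5 of the 28 that were not called. In the same order, the GC box was in 2, 7 and 22 members and the ETS core in 1, 5 and 9. CCAAT was in 0, 3 and 8, TATAAA in 0, 1 and 3 and the E box in 0, 2 and 5. With only 2 higher members, no difference between outcomes can be read from these counts. These are matches of letters in a fixed window and show neither binding nor its absence.

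Beyond the factors themselves, 60 genes of 6 lists of translation partners were tested, and 4 were higher and 16 lower, or 33.3% called beside 21.1% of all genes, with 8.48% and 12.6% of all genes higher and lower. Scaled to total counts, 8 of the partners were higher and 6 lower, beside 16.5% and 5.8% of all genes. The counts of single lists below stand against the same shares. The eIF2 kinases and phosphatase list had 2 of 11 higher and 1 lower. Ppp1r15a encodes GADD34, the stress-induced subunit that directs phosphatase to eIF2. It had 13.5, 11.2 and 13.1 CPM in knockdown libraries 1 to 3, against 7.98, 6.60 and 6.87 CPM in control libraries 1 to 3, a log2 change of 0.82 ± 0.16 (SE; edgeR adjusted p = 0.00336). Atf4, the transcription factor of the integrated stress response, had 287, 266 and 265 CPM in the knockdown, against 236, 215 and 203 CPM in the control (log2 fold change 0.32 ± 0.09 (SE), adjusted p = 0.0244). The call for Atf4 was lost without knockdown library 1 (0.0942) or control library 2 or 3 (0.102 each). Impact, an inhibitor of the kinase GCN2, had 853, 884 and 977 CPM in the knockdown, against 1118, 1146 and 1216 CPM in the control (-0.36 ± 0.08 (SE), adjusted p = 0.00957; 0.0958 with total-count scaling). None of the 4 eIF2 kinase genes was called, with log2 fold changes of -0.25 (Eif2ak1), 0.18 (Eif2ak2), 0.04 (Eif2ak3) and -0.14 (Eif2ak4, or 0.02 with total-count scaling). Exons of Eif2ak1, Eif2ak2 and Eif2ak3 overlap genes on the other strand, so the values of these kinases are uncertain.

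In the list of mTOR and cap kinases 5 of 16 were lower and 1 was higher. Mknk1, a kinase of eIF4E, had 7.29, 9.26 and 7.68 CPM in knockdown libraries, against 13.2, 14.0 and 15.0 CPM in control libraries, a log2 change of -0.80 ± 0.15 (SE; adjusted p = 0.00317). Mlst8, a subunit of both mTOR complexes, had 12.3, 17.8 and 12.5 CPM in the knockdown, against 22.6, 23.9 and 22.0 CPM in the control, a log2 change of -0.69 ± 0.15 (SE; adjusted p = 0.00779). Rps6kb2, a kinase of ribosomal protein S6, had a log2 change of -0.88 ± 0.20 (SE; adjusted p = 0.00812), with 4.82 to 5.88 CPM in the knockdown and 7.40 to 11.5 CPM in the control. Tsc2, an inhibitor of the pathway, was also lower (-0.40 ± 0.10 (SE), adjusted p = 0.0132), but not without knockdown library 1 (0.0832) or control library 2 (0.0596) or with total-count scaling. The other called genes, named after their values were seen, were Akt1s1, an inhibitory subunit of mTOR complex (-0.62, adjusted p = 0.0304), and Larp1, a binder of mRNAs for ribosomal proteins (0.35, adjusted p = 0.0172). Akt1s1 lost its call with total-count scaling and without any 1 library other than knockdown library 2 (adjusted p = 0.0653 to 0.097), and Larp1 lost its call without control library 1 (0.0716) or 2 (0.0877). The kinase Mtor itself had a log2 fold change of -0.19 (adjusted p = 0.295). Exons of Mknk1, Mlst8, Rps6kb2, Tsc2 and Akt1s1 overlap a gene on the other strand, and so do those of Ppp1r15a, so these values are uncertain.

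Among partners at the cap and tail 4 of 14 were lower and none was higher. Paip2, which holds the poly(A)-binding protein away from mRNA, had 296, 322.5 and 271 CPM in knockdown libraries 1 to 3, against 452, 404 and 418 CPM in control libraries 1 to 3, a log2 change of -0.52 ± 0.09 (SE; adjusted p = 0.00249). Ncbp2, the cap-binding subunit of the nuclear cap-binding complex, Cyfip2, a subunit of the WAVE actin regulator whose paralog binds eIF4E, and Paip1, a partner of the poly(A)-binding protein, had log2 fold changes of -0.45 (adjusted p = 0.0104), -0.37 (0.00868) and -0.31 (0.0372). With total-count scaling these 3 were no longer called. Ncbp2 also lost its call without knockdown library 1 (0.0665) or control library 2 (0.0562), Cyfip2 without knockdown library 1 (0.0536), and Paip1 without any 1 library other than knockdown library 3 (0.0783 to 0.15). Exons of Ncbp2 overlap a gene on the other strand, so its value is uncertain.

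For recycling and reinitiation 3 of 9 were lower and 1 was higher. Abce1, the ATPase that splits ribosomes, had 99.8, 109 and 136 CPM in knockdown libraries, against 78.5, 82.8 and 97.4 CPM in control libraries (log2 fold change 0.41 ± 0.13 (SE), adjusted p = 0.0345). That call was lost without knockdown library 3 (0.0993) or control library 1 or 2 (0.125 each). Mcts2 and Denr, whose products belong to the complex that removes tRNA from recycled subunits, and Etf1, the release factor, had log2 fold changes of -0.50 (adjusted p = 0.0102), -0.40 (0.0184) and -0.31 (0.0378). All 3 lost their call with total-count scaling. Denr also lost it without knockdown library 1 or 3 or control library 1 or 2 (0.0583 to 0.0752), and Etf1 without any 1 library other than knockdown library 3 (0.069 to 0.174). Mcts2 is a near-identical copy of Mcts1, and exons of Denr overlap a predicted gene on the same strand, so both values are uncertain. Of 8 elongation factors only Eef1b2, an exchange factor for eEF1A, was called, with 135.5, 151 and 90.9 CPM in the knockdown and 224, 199.5 and 192 CPM in the control (-0.70 ± 0.15 (SE), adjusted p = 0.00712). Exons of Eef1b2 overlap a predicted gene on the same strand and 9 bases of a gene on the other, so its value is uncertain. Eef1a1, which brings tRNA to the ribosome, had every knockdown library above every control library, with a log2 fold change of 0.14 that was not called, or 0.31 with total-count scaling (adjusted p = 0.0117). Exons of Eef1a1 overlap a predicted gene on the same strand, so its value is uncertain too. Eef2, the translocation factor, had a log2 fold change of 0.05.

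**Figure D5:**
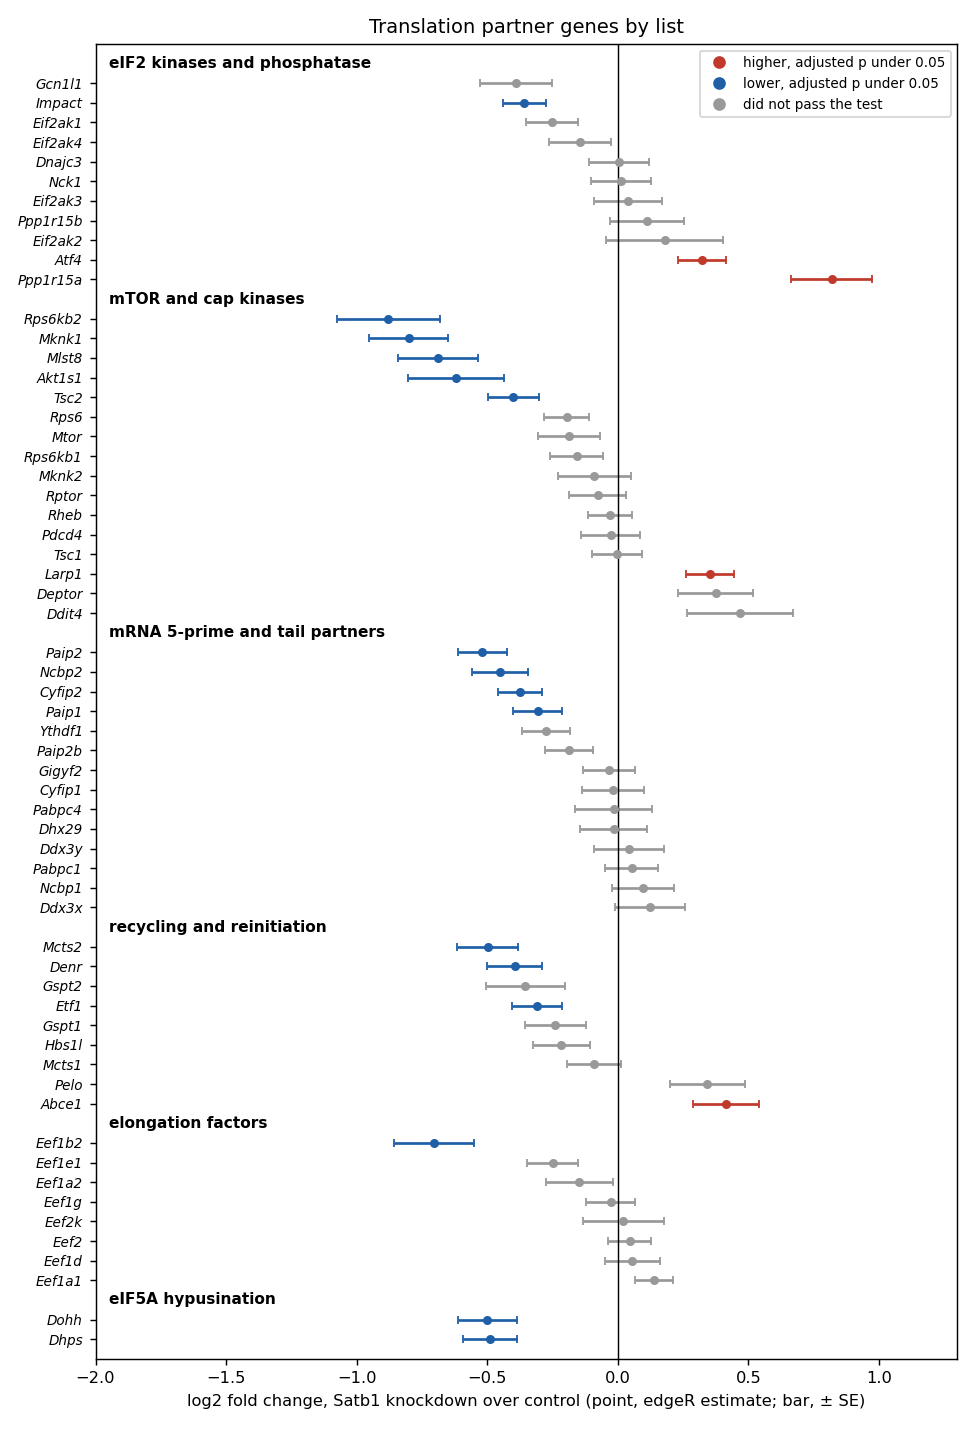
Log2 fold change of the 60 tested translation partner genes, Satb1 knockdown over control (x axis; point, edgeR estimate; bar, ± SE), by list down the page. Ppp1r15a at 0.82 lies highest, and the lower genes are spread over the lists, from Rps6kb2 at -0.88 to Etf1 and Paip1 at -0.31.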

How the data were processed

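The authors deposited whole-number counts of reads per gene, 1 column per library, made with TopHat2 2.0.8 and the build mm10 as the submitters' processing notes state. How reads were counted per gene, with or without strand, is not given in the sources used here. No count column of another sample was present.

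The counts were tested on all 6 libraries in edgeR 4.0.16 (R 4.3.3) by its quasi-likelihood F-test, with TMM scaling, filterByExpr by group (minimum count 10, minimum total count 15) and Benjamini-Hochberg adjustment over 16766 genes, 2-sided, with a threshold of 0.05. Standard errors were taken from the F statistic. Ratios within a library used counts plus 1 and an exact permutation test over libraries. Its smallest p with 3 against 3 libraries is 0.1, so no ratio could pass 0.05. Some ratios hold members that were called on the same libraries, so their p-values add no separate support to those calls. Exon lengths, overlaps and copies (at least 97% identity over at least 100 bases) came from the GENCODE M21 annotation and transcripts, and promoters from RefSeq. The starts of the 2 annotations can differ by some bases. The alternatives were DESeq2 1.42.0, limma-voom (limma 3.58.1), other scalings, filters and dispersions, a replicate block and leaving out each library. The scripts were tested on simulated data. No replicate was a copy of another, since the chi-square per gene between replicates was 58.5 to 156.

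Named with values were all called members, the 2 with the smallest p in complexes with fewer than 2 called, the most abundant of each complex, the genes of the ratios and, per partner list, up to 4 called genes. Other members and partners were named after their values were seen. The members and lists were chosen with earlier results of these data known.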

Additional observations from a re-analysis of the deposited data

How the results depend on the processing

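Each tested member and each partner gene named was refitted under 14 alternatives. Of the 15 called members 7 stayed called in all of them, and no called member changed sign. With total-count scaling 6 members were higher and 8 lower, 8 partner genes were higher and 6 lower, and 2770 of all genes were higher and 972 lower, against 1421 and 2115 with TMM scaling. A filter of at least 1 CPM gave 4 higher members. Leaving out 1 library at a time gave 0 to 1 higher and 7 to 12 lower members, 1 to 5 higher and 9 to 16 lower partner genes, and 804 to 1356 higher and 1132 to 2054 lower genes in all. The replicate numbers were not stated to pair libraries. The deviations of same-numbered libraries correlated at 0.0564, 0.0127 and 0.108, and those of differently numbered libraries at -0.101 to 0.0480. Whether same-numbered libraries share a mouse cannot be told from these values. With a replicate block 5 members were higher and 17 lower, beside 1924 and 2789 of all genes. Members called only with the block, and not in the main test, were Eif2b2, Eif2c3 and Eif3e (higher) and Eif2b5, Eif2s3x, Eif4a1 and Eif4b (lower). Their edgeR adjusted p with the block was 0.0154 (Eif4b) to 0.0452 (Eif3e). The kinase gene Eif2ak1 was also called lower with the block (adjusted p = 0.0469). Knockdown library 2 correlated best with control library 1. Signs turned only for genes that were not called. With total-count scaling the log2 fold change was 0.0084 for Eif1a, 0.084 for Eif2a, 0.091 for Eif2d, 0.037 for Eif2s1, 0.083 for Eif2s2, 0.017 for Eif2s3y, 0.085 for Eif3a, 0.046 for Eif3d, 0.13 for Eif3f, 0.021 for Eif4e, 0.018 for Eif4g3, 0.12 for Eif4h and 0.025 for Eif2ak4. With a filter of at least 1 CPM it was 0.0089 for Eif3f. Leaving out 1 library at a time it was -0.023 to 0.084 for Eif1, -0.030 to 0.044 for Eif3i, -0.18 to 0.20 for Eif4ebp1, -0.13 to 0.0066 for Eif2d, -0.24 to 0.0094 for Eif3a, -0.099 to 0.061 for Eif3f, -0.067 to 0.012 for Eif4h, -0.060 to 0.98 for Eif4ebp3 and -0.014 to 0.13 for Eif2ak3. The cause of these changes was not tested. Depth limits Eif4e1b, with 8 counts in all.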
